A study of Homo sapiens with 12 samples.

Results

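The genes described here are 48 human genes that act in the G2 phase and in mitosis, chosen by name for their function in cell division, with earlier results of these data known. They were found as 48 of the 78930 genes of a table of raw gene counts on the hg38 build, and all 48 were among the 24064 genes that passed the filter on low counts, so none was lost to it. RNA was measured by sequencing of poly(A) RNA in OCI-AML3, a cell line from human acute myeloid leukaemia with NPM1c, the mutant of nucleophosmin that sits in the cytoplasm. In the engineered line the mutant allele carries a degron, a tag that lets dTAG-13 send the fusion protein to degradation, beside a normal NPM1 allele, and all 4 groups share this genotype (NPM1c-degron). There were 3 libraries per group. The dTAG FL-NPM1c group received lentivirus for FL-NPM1c-mCherry, the dTAG C-body null group for Cbodynull-mCherry, and the dTAG mCherry group for mCherry alone; all 3 received 500 nM dTAG-13 at 48 hours after transduction, and the sort for mCherry-positive cells followed after another 24 hours. The NTC DMSO group has titles that name the solvent DMSO, a treatment label that reads dTAG, and a genotype label with no construct; what NTC stands for is not given. Any comparison with NTC DMSO therefore joins dTAG-13, the construct and possibly the transduction and the sort, and these cannot be told apart. Whether the replicates are separate cultures is not stated, and p-values thus reflect a spread between libraries that may be technical.

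A cell enters mitosis when cyclin B and CDK1 are freed of inhibitory phosphates, and it leaves mitosis when the anaphase-promoting complex, with CDC20, marks cyclin B and securin for destruction. Transcripts of this machinery are made late in the cell cycle, under FOXM1 and the MuvB and B-MYB proteins, and are held down in resting cells and after p53 activation by the DREAM complex, which contacts a promoter element called the cell cycle genes homology region. In leukaemia lines such as OCI-AML3, levels of these genes are widely read as a sign of how many cells are dividing.

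Promoter letters are shown first, since the cell cycle genes homology region (TTTGAA or TTCGAA) and the CCAAT box bound by NF-Y are the elements through which many genes of this kind are controlled. Promoter windows of 300 bases, 250 before to 50 after a start site, were available from RefSeq (GRCh38.p14) for 40 of the 48 genes, in 51 windows, 12 of which overlap another window of their gene. The 8 genes without a window were AURKA, BIRC5, BUB3, FOXM1, PIMREG, TPX2, TTK and UBE2C. Searched on both strands, TTTGAA or TTCGAA stood in 35 of the 51 windows (68.6%), against 16.4% of the 35116 windows of all genes. CCAAT, also on both strands, stood in 38 of the 51 (74.5%), against 34.6% of all windows, and both kinds of match stood together in 29 (56.9%), against 6.38% of all windows. CCAAT and TTTGAA can share an edge base, and each match was counted. The promoters of both B cyclins, of CDC20 and of PLK1 are printed as 150-base stretches of the plus strand. The B cyclins are the core of mitotic entry, and PLK1 and CDC20 are among 6 genes called different between the add-back groups further on. Among these, PIMREG and CENPE differed more, and the calls of PLK1 and CDC20 ended in 5 and 4 of 6 fits without 1 library. Capitals mark CCAAT and TTTGAA. The stretches are chr5:69167000-69167149 for CCNB1, chr15:59104996-59105145 for CCNB2, chr1:43358831-43358980 for CDC20 and chr16:23678739-23678888 for PLK1.
CCNB1: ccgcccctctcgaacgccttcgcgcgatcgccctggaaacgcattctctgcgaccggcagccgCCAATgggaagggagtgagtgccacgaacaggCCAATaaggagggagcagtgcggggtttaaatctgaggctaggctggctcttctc
CCNB2: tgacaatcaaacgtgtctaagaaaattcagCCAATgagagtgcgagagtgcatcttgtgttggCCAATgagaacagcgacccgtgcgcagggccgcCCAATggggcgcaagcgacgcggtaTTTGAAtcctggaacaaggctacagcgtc
CDC20: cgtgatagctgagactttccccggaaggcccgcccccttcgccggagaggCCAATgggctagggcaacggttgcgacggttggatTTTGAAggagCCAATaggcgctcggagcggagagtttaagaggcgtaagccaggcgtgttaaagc
PLK1: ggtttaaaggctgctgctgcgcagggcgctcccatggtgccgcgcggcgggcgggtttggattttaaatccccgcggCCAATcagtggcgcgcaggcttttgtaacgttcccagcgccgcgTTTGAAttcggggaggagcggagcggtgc
CCNB2 had CCAAT at 120, 87 and 54 bases before its start site and TTTGAA at 29, and PLK1 had CCAAT at 73 and TTTGAA at 29. In CDC20 the order differed, with CCAAT at 100 and 55 bases before the start and TTTGAA between them at 65. CCNB1 had CCAAT at 87 and 55 and no TTTGAA or TTCGAA in its window, which says only that these letters are not there. In the first listed window of each of the 40 genes, the 37 matches to TTTGAA had a median position of 29 bases before the start, and the 68 matches to CCAAT one of 77. A match is a description of letters and not evidence of a bound site.

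The 12 libraries held 30.5 M to 59.9 M gene counts (median 41.0 M), and the lowest count of any of the 48 genes in any library was 325. Levels are given in CPM, counts scaled to an effective library total of 1 M. Of 7 myeloid markers, 6 passed the filter and KIT was at 0 throughout; the summed level of the 7 was 522 to 601 CPM in dTAG FL-NPM1c, 575.1 to 654.7 in dTAG C-body null, 505.4 to 624.8 in dTAG mCherry and 364.3 to 411.6 in NTC DMSO. Defining markers of T cells (CD3D, CD3E and CD2) were at 0 in every library, and the summed markers of B cells, of erythroid cells and of epithelium and fibroblasts stayed at or under 1.57 CPM. NCAM1, listed with the T and NK cell markers, was at 110.0 to 154.5 CPM in all groups. NPM1 served as the check of the labels and was higher than in dTAG mCherry in both add-back groups, by 0.40 ± 0.09 (SE, log2) in dTAG FL-NPM1c (adjusted p = 0.00726) and by 0.62 ± 0.09 in dTAG C-body null (adjusted p = 0.0029); counts do not separate the constructs from the gene itself. The mitochondrial share of counts was 8.41%, 7.32% and 9.63% in the dTAG mCherry libraries and 6.83% to 7.63% in the other groups. The part of the myeloid markers and of the mitochondrial share in the results was not tested.

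All 48 genes were lower in dTAG mCherry than in NTC DMSO. The edgeR quasi-likelihood test at an adjusted p under 0.05 called 9.69% of all 24064 genes lower in this comparison and 12.9% higher. The median log2 fold change of the 48 was -0.51, against -0.0016 over all genes tested, and the changes ran from -0.81 for PIMREG to -0.29 for BUB3, with adjusted p-values from 5.97e-06 to 0.00663. The falls were moderate in size, and 12 of the 48 reached 1.5-fold. The share of all genes that did so was not computed. In each of the 48 genes, the 3 dTAG mCherry libraries lay below the 3 NTC DMSO libraries, which held for 14.3% of all genes. Since these are bulk samples, fewer cells in G2 and mitosis and less of each RNA per cell cannot be told apart.

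**Figure D1:**
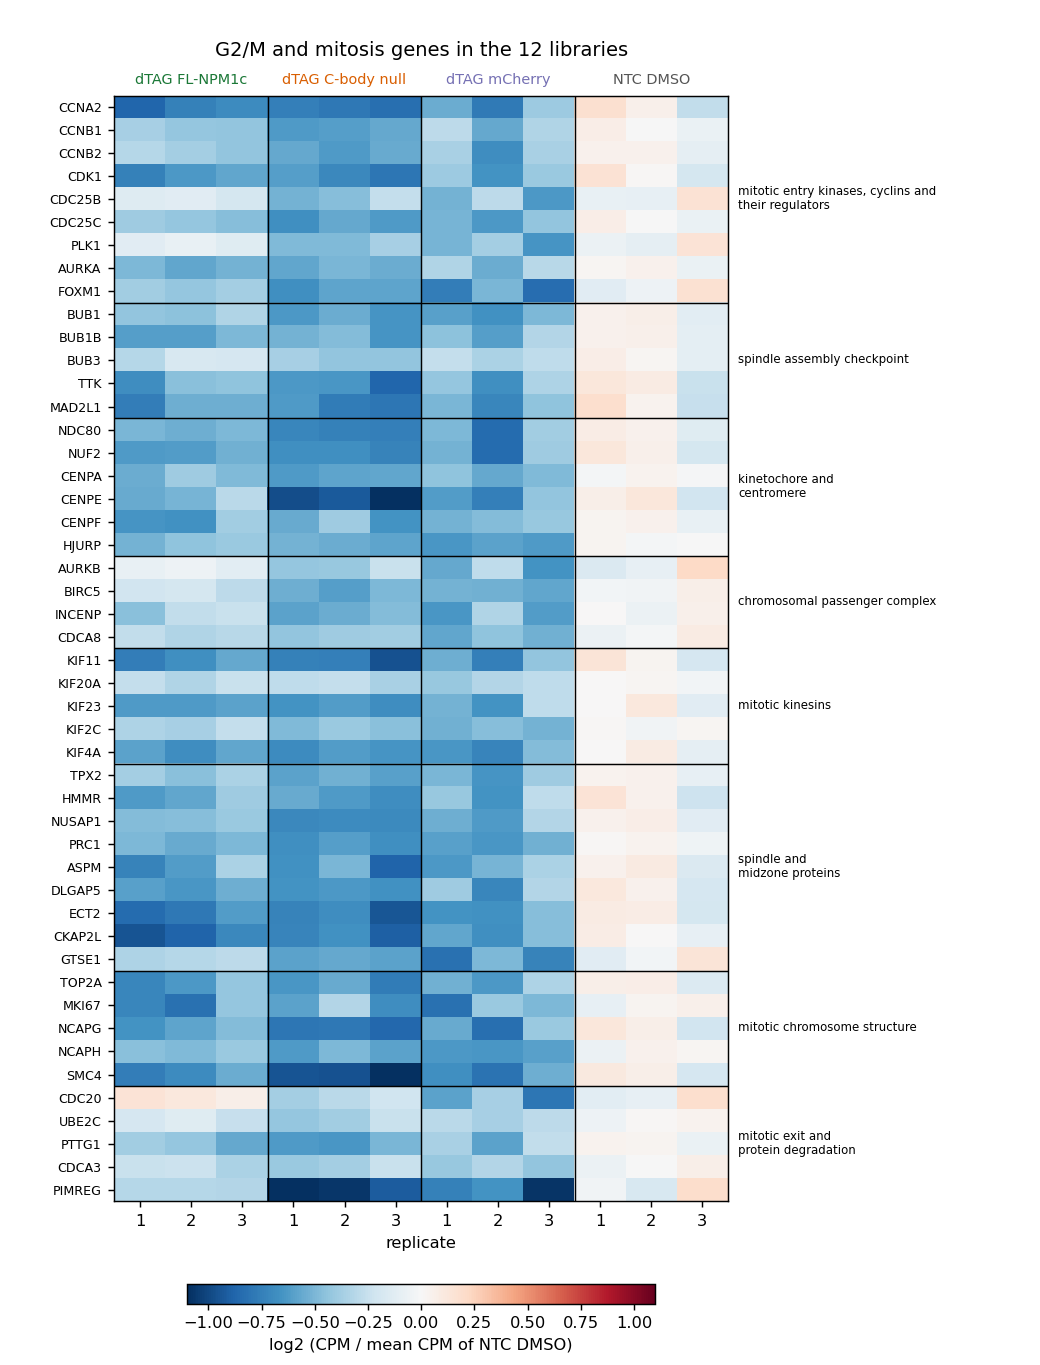
Level of each of the 48 genes (down the page, by role) in each of the 12 libraries (across, by group), as log2 of CPM over the mean CPM of NTC DMSO, blue where lower and red where higher. The 9 dTAG libraries are blue nearly throughout, and the CDC20 line in dTAG FL-NPM1c is the exception.

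The same genes were low in all 3 dTAG groups. In dTAG C-body null, 48 of 48 were lower than in NTC DMSO (12.4% of all genes were called lower). The median was -0.60, with a range from -1.04 for CENPE to -0.29 for CDC20. A fall of 1.5-fold was reached by 27, and the share of all genes at that size was not computed. In dTAG FL-NPM1c, 43 of 48 were lower than in NTC DMSO (13.3% of all genes), with a median of -0.46 and a range from -0.84 for CKAP2L to 0.11 for CDC20. The 5 genes not called there were CDC25B, PLK1, AURKB, CDC20 and UBE2C. The libraries of dTAG FL-NPM1c lay all below those of NTC DMSO in 45 of the 48 genes (20.3% of all genes), and those of dTAG C-body null in 48 (19.3% of all genes). In 45 of the 48 genes every NTC DMSO library lay above all 9 dTAG libraries, and the exceptions were PLK1, AURKB and CDC20. The share of all genes that meet this rule was not computed. Any such gene also has its dTAG mCherry libraries below those of NTC DMSO, which held for 14.3% of all genes. The 3 comparisons use the same NTC DMSO libraries, so their counts are not independent of each other. Across libraries, the median over the 48 genes of the log2 ratio to the NTC DMSO mean was -0.49, -0.46 and -0.42 in dTAG FL-NPM1c, while it was -0.62, -0.58 and -0.65 in dTAG C-body null and -0.53, -0.62 and -0.43 in dTAG mCherry. In the NTC DMSO libraries it was 0.04, 0.04 and -0.08. Every dTAG library lay below every NTC DMSO library by this measure.

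**Figure D2:**
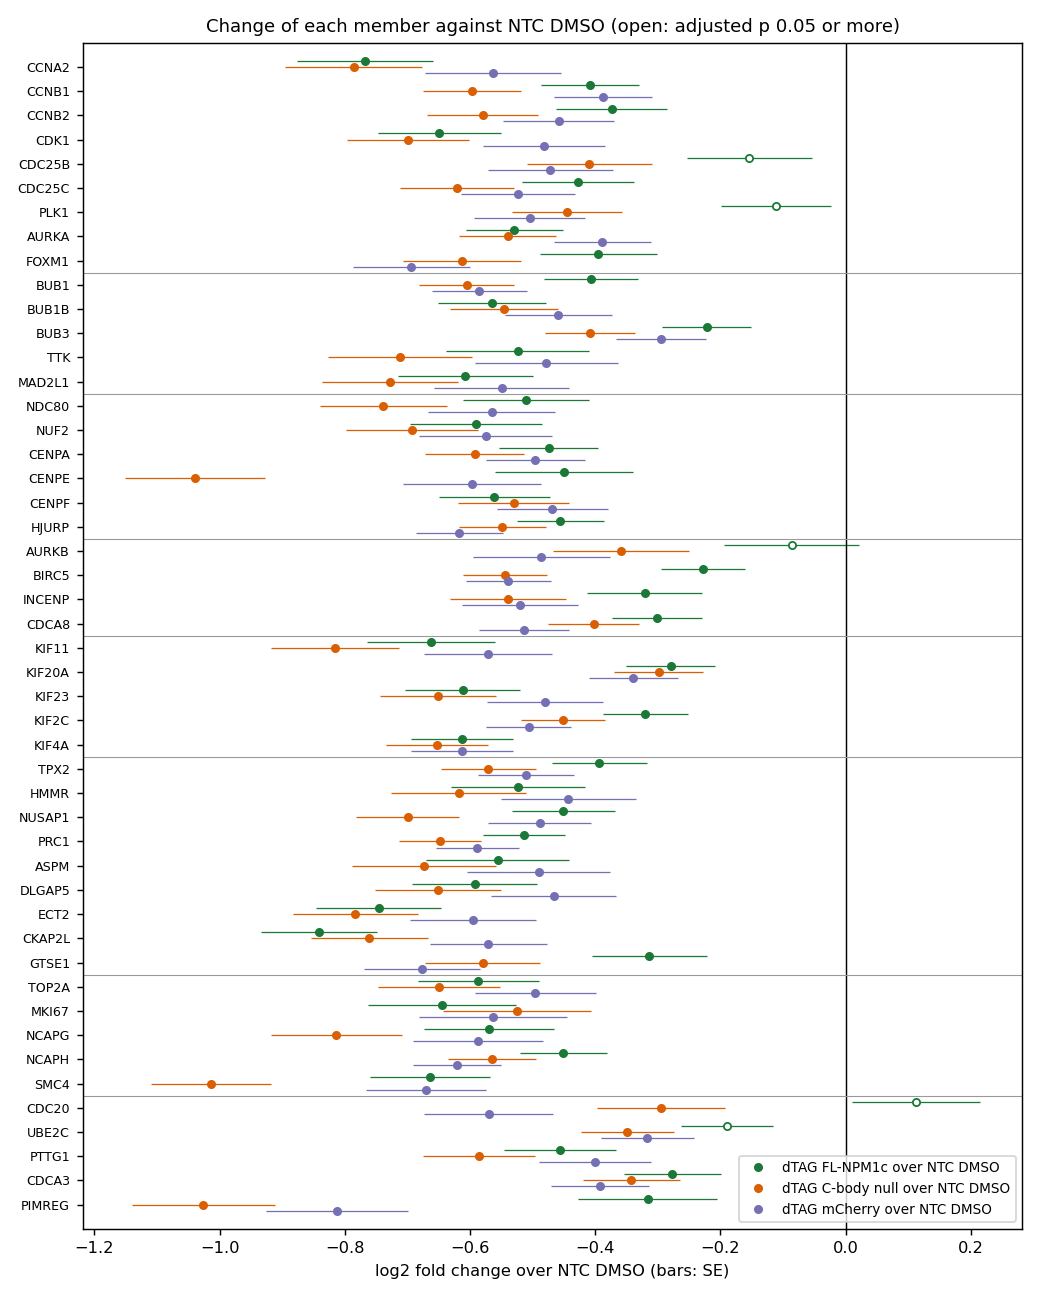
Log2 fold change over NTC DMSO (x axis, with SE bars) of each of the 48 genes (y axis, grouped by role) in dTAG FL-NPM1c, dTAG C-body null and dTAG mCherry; open points missed an adjusted p of 0.05. All points lie left of 0 but that of CDC20 in dTAG FL-NPM1c, and the 5 open points are all from dTAG FL-NPM1c.

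The 9 genes of mitotic entry include the cyclins, CDK1, its activating phosphatases and the kinases that act with it. CCNB1 encodes cyclin B1, the main partner of CDK1, and had the highest level per length of the 48 in NTC DMSO, at 92.9 CPM per kilobase of exon (median of the 48: 28.1). It was at 184, 177 and 176 CPM in dTAG FL-NPM1c, at 154, 156 and 161 in dTAG C-body null and at 195, 160.5 and 189 in dTAG mCherry, against 249.9, 237 and 226 in NTC DMSO. The NTC DMSO libraries stood above all the others, and the dTAG FL-NPM1c libraries above those of dTAG C-body null. CCNB1 fell by 0.41 in dTAG FL-NPM1c, 0.60 in dTAG C-body null and 0.39 in dTAG mCherry on the log2 scale (adjusted p = 0.00118, 2.45e-05 and 0.00171). CDK1, the kinase itself, was at 81.1, 87.5 and 91.2 CPM in dTAG FL-NPM1c, at 89.4, 83.3 and 78.2 in dTAG C-body null and at 103, 86.2 and 103 in dTAG mCherry, against 151, 137 and 119 in NTC DMSO. Its log2 fold changes over NTC DMSO were -0.65 ± 0.10, -0.70 ± 0.10 and -0.48 ± 0.10 (SE) in the same order, and no dTAG library reached the lowest NTC DMSO library. CCNA2, whose cyclin A acts in S phase and early mitosis, stood at -0.77 ± 0.11 in dTAG FL-NPM1c, at -0.79 ± 0.11 in dTAG C-body null and at -0.56 ± 0.11 in dTAG mCherry. AURKA, the Aurora kinase of the spindle poles, changed by -0.53, -0.54 and -0.39 in these 3 comparisons, all called. CCNB2 and CDC25C, a phosphatase that activates CDK1, were also called in all 3, but exons of CDC25C overlap FAM53C on the other strand, which had 3.71 to 6.87 times as many counts, so that its value is uncertain.

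FOXM1 encodes the transcription factor that drives many of the 48 genes, and it had the largest fall of the mitotic entry group in dTAG mCherry. Its level was 106, 103 and 107 CPM in dTAG FL-NPM1c, at 86.6, 92.2 and 92.2 in dTAG C-body null and at 81.5, 97.5 and 77.1 in dTAG mCherry, against 127, 133 and 155 in NTC DMSO. The change over NTC DMSO was -0.69 ± 0.09 in dTAG mCherry (adjusted p = 4.39e-05), -0.61 ± 0.09 in dTAG C-body null and -0.40 ± 0.09 in dTAG FL-NPM1c, where the adjusted p was 0.00521. PLK1, the Polo-like kinase that acts from entry to exit, was at 68.3, 70.1 and 67.9 CPM in dTAG FL-NPM1c, at 53.1, 52.9 and 57.6 in dTAG C-body null and at 52.2, 57.4 and 47.2 in dTAG mCherry, against 71.1, 69.4 and 82.2 in NTC DMSO. Its FL-NPM1c libraries lay at the lower edge of the NTC DMSO range and overlapped it, while the C-body null and mCherry libraries lay well below. PLK1 was called lower than in NTC DMSO in dTAG C-body null (-0.44 ± 0.09, adjusted p = 0.0012) and likewise in dTAG mCherry (-0.50 ± 0.09, adjusted p = 0.000518) but not in dTAG FL-NPM1c (-0.11 ± 0.09, adjusted p = 0.371). CDC25B, a CDK1-activating phosphatase like CDC25C, had the same calls: -0.15 in dTAG FL-NPM1c (adjusted p = 0.267), -0.41 in dTAG C-body null (adjusted p = 0.00564) and -0.47 in dTAG mCherry (adjusted p = 0.00251).

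The 5 genes of the spindle assembly checkpoint, which delays anaphase until chromosomes are attached, were lower than in NTC DMSO in every dTAG group, with medians of -0.52 in dTAG FL-NPM1c, -0.61 in dTAG C-body null and -0.48 in dTAG mCherry. BUB1, a checkpoint kinase of the kinetochore, was at 146, 144 and 157 CPM in dTAG FL-NPM1c, at 128, 136 and 126 in dTAG C-body null and at 131, 125 and 140.2 in dTAG mCherry, against 204, 206 and 183 in NTC DMSO. It had the largest fall of the 5 in dTAG mCherry, at -0.59 ± 0.08 (adjusted p = 2.75e-05). BUB3, which brings BUB1 and BUB1B to kinetochores, had the smallest fall of all 48 in that comparison, at -0.29 ± 0.07 (adjusted p = 0.00663). Its levels were 169, 185 and 184 CPM in dTAG FL-NPM1c, at 163, 155 and 155 in dTAG C-body null and at 175, 165 and 172 in dTAG mCherry, against 220.3, 213 and 195 in NTC DMSO, and its change in dTAG FL-NPM1c (-0.22, adjusted p = 0.0292) was not called once any of NTC DMSO replicate 1 or 2 or FL-NPM1c replicate 1 or 2 was left out. BUB1B, TTK (the kinase MPS1) and MAD2L1 (the inhibitor of CDC20) ranged between -0.46 and -0.55 in dTAG mCherry, all called.

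Kinetochore and centromere genes, 6 in number, link chromosomes to microtubules and were all lower in each dTAG group, with medians of -0.49 in dTAG FL-NPM1c, -0.64 in dTAG C-body null and -0.57 in dTAG mCherry. HJURP, the chaperone that places the centromere histone CENPA, was at 52.9, 55.9 and 57.4 CPM in dTAG FL-NPM1c, at 52.96, 52.1 and 50.8 in dTAG C-body null and at 48.7, 50.4 and 49.5 in dTAG mCherry, against 77.7, 74.7 and 75.6 in NTC DMSO. It had the largest fall of the 6 in dTAG mCherry, at -0.62 ± 0.07 (adjusted p = 6.31e-06). CENPE, a kinesin that carries chromosomes to the spindle equator, was at 143, 147 and 170.4 CPM in dTAG FL-NPM1c, at 106, 110.1 and 89.3 in dTAG C-body null and at 136, 124 and 155 in dTAG mCherry, against 219, 228 and 181 in NTC DMSO. Its C-body null libraries lay below every library of the other groups, and the fall there was the largest of any of the 48 genes, at -1.04 ± 0.11 (adjusted p = 2.54e-06), against -0.45 ± 0.11 in dTAG FL-NPM1c and -0.60 ± 0.11 in dTAG mCherry. CENPF, a large kinetochore protein, had the smallest fall of the 6 in dTAG mCherry, at -0.47 ± 0.09 (adjusted p = 0.00104), and NDC80 and NUF2, which form one microtubule-binding complex, stood at -0.57 and -0.58.

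The chromosomal passenger complex corrects faulty attachments and later directs cytokinesis; its 4 genes encode the kinase (AURKB) and its partners INCENP, BIRC5 (survivin) and CDCA8 (borealin). In dTAG mCherry they fell by nearly the same amount, from -0.54 for BIRC5 to -0.49 for AURKB. In dTAG FL-NPM1c the median of the 4 was -0.26, against -0.47 in dTAG C-body null and -0.52 in dTAG mCherry, each over NTC DMSO. AURKB was at 57.5, 58.7 and 56.2 CPM in dTAG FL-NPM1c, at 45.5, 45.7 and 51.5 in dTAG C-body null and at 41.3, 50.4 and 38.8 in dTAG mCherry, against 54.7, 57.4 and 70.9 in NTC DMSO. Its FL-NPM1c libraries fell within the NTC DMSO range, and the difference was not called (-0.09 ± 0.11, adjusted p = 0.59). BIRC5 was at 188, 189.9 and 177 CPM in dTAG FL-NPM1c, at 149, 142 and 154 in dTAG C-body null and at 151, 151 and 146 in dTAG mCherry, against 212, 211 and 227 in NTC DMSO, with no overlap between NTC DMSO and any dTAG group. Its change was -0.23 ± 0.07 in dTAG FL-NPM1c (adjusted p = 0.019), -0.54 ± 0.07 in dTAG C-body null and -0.54 ± 0.07 in dTAG mCherry (adjusted p = 1.29e-05 and 1.9e-05).

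The mitotic kinesins are 5 motors of the spindle. KIF4A, which acts on chromosome arms and at the midzone, had the largest fall of them in dTAG mCherry (-0.61 ± 0.08, adjusted p = 3.8e-05), and its levels were close in the dTAG groups, at 58.5 ± 2.38 CPM in dTAG FL-NPM1c, 56.9 ± 1.52 in dTAG C-body null and 58.6 ± 5.11 in dTAG mCherry, against 89.5 ± 5.77 in NTC DMSO (SD, n = 3 each). KIF20A, a motor of the midzone and of cytokinesis, had the smallest (-0.34 ± 0.07, adjusted p = 0.00231), with 65.2 ± 1.97, 64.4 ± 2.18 and 62.6 ± 3.12 CPM in the same 3 groups, against 79.2 ± 1.43 in NTC DMSO. Exons of KIF20A overlap CDC23 and BRD8 on the other strand, which had 1.16 to 1.52 and 0.940 to 1.24 times as many counts, and how strand was used in counting is not given. KIF11 (Eg5, which pushes the poles apart) was at -0.66 in dTAG FL-NPM1c, -0.82 in dTAG C-body null and -0.57 in dTAG mCherry. KIF23, a motor of the central spindle, and KIF2C, which takes microtubules apart at the centromere, were called lower in each dTAG group. Exons of KIF2C overlap AL592166.1 on the other strand, which had 0.64 to 1.42 times as many counts, so that its value is uncertain too.

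Spindle and midzone proteins formed a group of 9, all lower in each dTAG group, with medians of -0.52 in dTAG FL-NPM1c, -0.65 in dTAG C-body null and -0.51 in dTAG mCherry. GTSE1, a microtubule-bound protein that also restrains p53, had the largest fall of the 9 in dTAG mCherry, at 32.5, 40.7 and 34.4 CPM against 52.6, 56.4 and 63.3 in NTC DMSO (-0.68 ± 0.09, adjusted p = 5.02e-05). HMMR, which helps shape the spindle poles, had the smallest, at 87.7, 74.6 and 96.9 CPM against 130.5, 121 and 100.2 in NTC DMSO (-0.44 ± 0.11, adjusted p = 0.00662). Neither gene's dTAG mCherry libraries overlapped those of NTC DMSO. CKAP2L, a spindle protein, had the largest fall of the 48 in dTAG FL-NPM1c, at 26.05, 27.2 and 30.7 CPM against 52.997, 50.4 and 47.2 in NTC DMSO (-0.84 ± 0.09, adjusted p = 7.34e-06), and its level in dTAG FL-NPM1c was no higher than in dTAG C-body null or dTAG mCherry, at 29.6 ± 2.43 and 33.8 ± 2.45 CPM (SD, n = 3). ECT2, which activates RhoA for the cleavage furrow, stood at -0.75 in dTAG FL-NPM1c, -0.78 in dTAG C-body null and -0.60 in dTAG mCherry. TPX2 (the activator of AURKA), NUSAP1, PRC1 (which bundles midzone microtubules), ASPM and DLGAP5 were called lower in each dTAG group. PRC1 and NUSAP1 are uncertain in level, because the overlapping annotations AC068831.7 and AC087721.2 on the same strand had 1.13 to 1.21 and 1.06 to 1.09 times as many counts.

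The 5 genes of mitotic chromosome structure were lower in each dTAG group, with medians of -0.59 in dTAG FL-NPM1c, -0.65 in dTAG C-body null and -0.59 in dTAG mCherry. SMC4, the ATPase of condensin, was at 299, 314 and 348 CPM in dTAG FL-NPM1c, at 263, 262 and 229 in dTAG C-body null and at 319, 289 and 349.7 in dTAG mCherry, against 547, 529.7 and 447 in NTC DMSO. It had the largest fall of the 5 in dTAG mCherry (-0.67 ± 0.10, adjusted p = 7.19e-05) and a larger one in dTAG C-body null (-1.01 ± 0.10, adjusted p = 6.32e-07), whose libraries lay below those of every other group. TOP2A, the enzyme that untangles sister chromatids, was at 358, 382 and 439.7 CPM in dTAG FL-NPM1c, at 380.1, 404 and 346 in dTAG C-body null and at 409, 382 and 467 in dTAG mCherry, against 617, 623 and 533 in NTC DMSO. Its change in dTAG mCherry was -0.50 ± 0.10 (adjusted p = 0.00132). MKI67, the Ki-67 antigen that coats mitotic chromosomes and is the usual stain for dividing cells, was at 356, 331 and 434 CPM in dTAG FL-NPM1c, at 388, 466 and 364 in dTAG C-body null and at 331, 441 and 414 in dTAG mCherry, against 550.4, 596 and 606 in NTC DMSO. The dTAG groups overlapped each other and none reached NTC DMSO, with changes of -0.65 ± 0.12, -0.53 ± 0.12 and -0.56 ± 0.12 in the same order. NCAPG and NCAPH, condensin subunits, were at -0.59 and -0.62 in dTAG mCherry.

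The group of mitotic exit and protein degradation, 5 genes, had the widest spread of changes of the 8 groups in dTAG mCherry over NTC DMSO. PIMREG, a mitotic regulator named for its binding to PICALM, had the largest fall of the 48 genes in dTAG mCherry: it was at 27.7, 27.6 and 27.4 CPM in dTAG FL-NPM1c, at 15.996, 16.3 and 18.2 in dTAG C-body null and at 20.4, 21.8 and 16.2 in dTAG mCherry, against 33.5, 30.4 and 39.2 in NTC DMSO. The 4 groups were ordered NTC DMSO, dTAG FL-NPM1c, dTAG mCherry and dTAG C-body null by mean, and the mCherry and C-body null libraries overlapped. Over NTC DMSO the changes were -0.32 ± 0.11 in dTAG FL-NPM1c (adjusted p = 0.0436), -1.03 ± 0.11 in dTAG C-body null (adjusted p = 3.8e-06) and -0.81 ± 0.11 in dTAG mCherry (adjusted p = 5.94e-05). UBE2C, a ubiquitin-conjugating enzyme of the anaphase-promoting complex, had the smallest change of the 5 in dTAG mCherry; its values were -0.19 ± 0.07 in dTAG FL-NPM1c (adjusted p = 0.0646), -0.35 ± 0.07 in dTAG C-body null (adjusted p = 0.00201) and -0.32 ± 0.07 in dTAG mCherry (adjusted p = 0.00495). PTTG1 (securin) and CDCA3, a mitotic entry factor degraded on exit, were called lower in each dTAG group.

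CDC20, the coactivator through which the anaphase-promoting complex starts anaphase, had a pattern of its own and lies on chromosome 1 (43358955 to 43363203, plus strand, GRCh38, ENSG00000117399). It was at 185, 181 and 174 CPM in dTAG FL-NPM1c, at 129, 136 and 143 in dTAG C-body null and at 111, 129.7 and 96.2 in dTAG mCherry, against 154, 157 and 189.8 in NTC DMSO. It was the only gene of the 48 whose mean was highest in dTAG FL-NPM1c; for the other 47 it was highest in NTC DMSO. Over NTC DMSO, CDC20 changed by -0.57 ± 0.10 in dTAG mCherry (adjusted p = 0.000682) and -0.29 ± 0.10 in dTAG C-body null (adjusted p = 0.0435), while the value in dTAG FL-NPM1c was 0.11 ± 0.10 (adjusted p = 0.445). The C-body null call ended without NTC DMSO replicate 3 or without C-body null replicate 1 or 2.

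**Figure D3:**
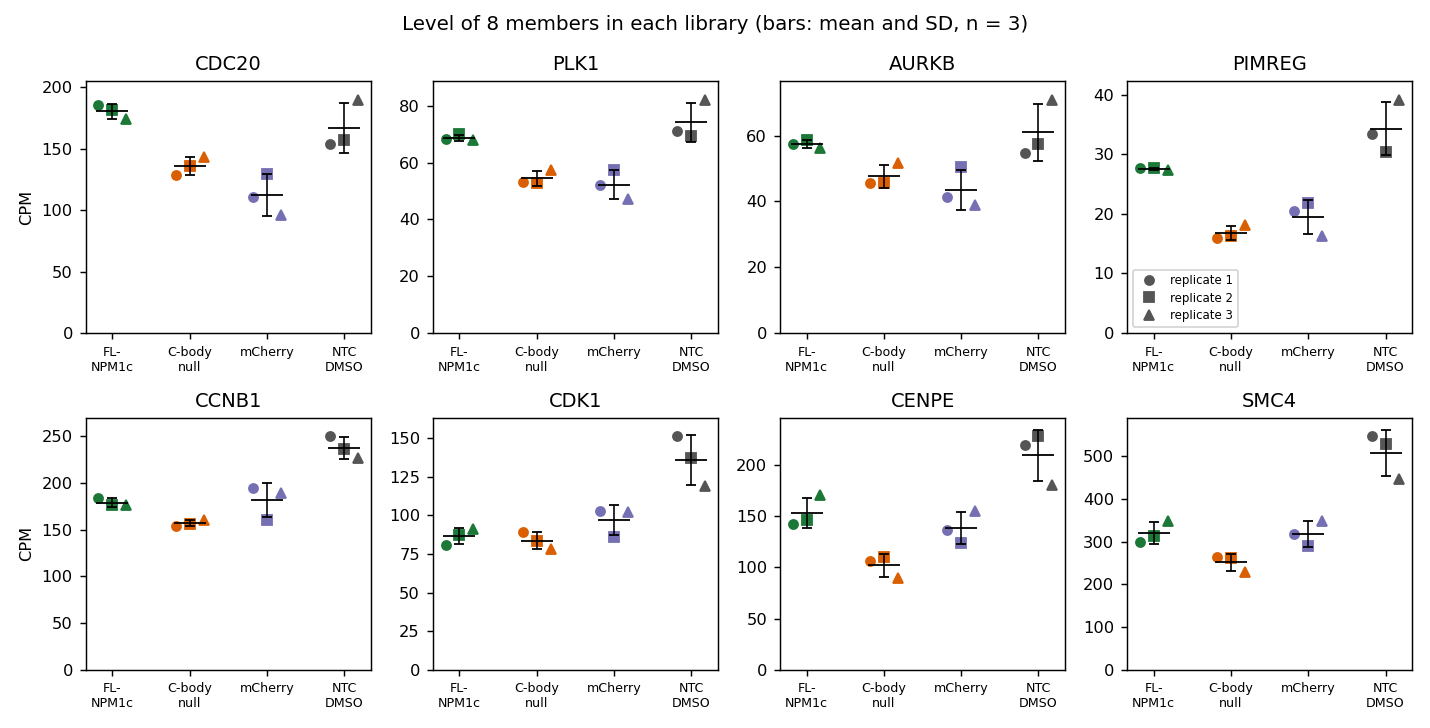
Level in CPM (y axis, from 0) of 8 of the genes in each library of the 4 groups (x axis), with symbols for replicates 1 to 3 and black bars for the mean and SD (n = 3). In the upper panels dTAG FL-NPM1c lies above the other dTAG groups; in the lower panels CCNB1 and CDK1 lie below NTC DMSO in every dTAG library, and CENPE and SMC4 are lowest in dTAG C-body null.

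The comparison of dTAG FL-NPM1c with dTAG mCherry asked which of the genes differ when full-length NPM1c is put back. Most did not differ detectably: 8 of 48 were higher (7.58% of all genes were) and 0 were lower (7.95% of all genes were), and the median log2 fold change was 0.05. The dTAG mCherry libraries are the same as in the comparison with NTC DMSO. At an unadjusted p under 0.05, 14 were higher and 1 was lower, and no share of all genes was computed at that level. DESeq2 called 10 higher and 1 lower (9.97% and 9.65% of all genes tested). The 8 were CDC20 (0.68 ± 0.10, adjusted p = 0.00041), PIMREG (0.50 ± 0.11, 0.00865), AURKB (0.40 ± 0.11, 0.0222), PLK1 (0.39 ± 0.09, 0.00787), GTSE1 (0.36 ± 0.09, 0.0159), CDC25B (0.32 ± 0.10, 0.0411), BIRC5 (0.31 ± 0.07, 0.00632) and FOXM1 (0.30 ± 0.09, 0.0408). They came from 4 of the 8 role groups: mitotic entry, the chromosomal passenger complex, spindle proteins and mitotic exit. No gene of the checkpoint, the kinetochore, the kinesins or chromosome structure was called there, but with the GC offsets described further on, the 16 genes gained came from all 4 of these groups too, among them BUB1, NDC80, KIF2C and SMC4, and DESeq2 also called KIF2C. Values that were not called included -0.02 for CCNB1, -0.17 for CDK1 and -0.09 for TOP2A. Against NTC DMSO the 8 genes had different calls: AURKB, PLK1, CDC25B and CDC20 were not called different from it in dTAG FL-NPM1c, while PIMREG, GTSE1, BIRC5 and FOXM1 were still called lower, at -0.32, -0.31, -0.23 and -0.40. This division was not tested as a difference and was not stable. With GC offsets CDC25B, PLK1 and AURKB were called lower too, and the PIMREG call ended without any one of the 6 libraries but NTC DMSO replicate 2. The GTSE1 call ended without NTC DMSO replicate 3 or FL-NPM1c replicate 2, and the BIRC5 call without FL-NPM1c replicate 3. In 4 of the 48 genes (BUB1B, CENPF, CKAP2L and MKI67) the mean in dTAG FL-NPM1c was the lowest of the 4 groups.

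Part of the calls of dTAG FL-NPM1c over dTAG mCherry ended when any of several libraries was left out. CDC20, PIMREG and PLK1 were called whichever FL-NPM1c or mCherry library was left out. The number of genes called higher was 3 without FL-NPM1c replicate 1 (2.84% of all genes tested). It was 4 without FL-NPM1c replicate 2 (2.93%), mCherry replicate 1 (3.29%) or mCherry replicate 3 (3.33%). CDC25B, FOXM1, AURKB and GTSE1 were lost each time. Over the 6 fits without 1 library, their log2 fold changes stayed positive. They ran from 0.25 to 0.42 for CDC25B, 0.23 to 0.405 for FOXM1, 0.33 to 0.52 for AURKB and 0.27 to 0.47 for GTSE1. Without mCherry replicate 2 the number was 11 (14.8% of all genes tested), with 4 genes then called lower (13.0%): CCNA2, AURKA, DLGAP5 and CKAP2L.

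The 8 genes differ from the other 40 in base composition, and that difference goes with 2 libraries. Transcript GC content was 52.2% to 59.3% in the 8 (median 55.6%) and 35.3% to 59.6% in the other 40 (median 42.6%). In dTAG mCherry replicate 2, 8 of the 8 genes were above the mean of replicates 1 and 3, against 7 of the other 40; in NTC DMSO replicate 3 the same counts against replicates 1 and 2 were 8 of 8 and 7 of 40. Across the 48 genes, Spearman's rho of GC content was 0.76 with the deviation of mCherry replicate 2, 0.92 with that of NTC DMSO replicate 3 and 0.73 with the log2 fold change of dTAG FL-NPM1c over dTAG mCherry. With that of dTAG FL-NPM1c over NTC DMSO it was 0.74, and with that of dTAG mCherry over NTC DMSO 0.014. These are descriptions over genes that share their libraries, and the part of GC content in the FL-NPM1c differences was not tested by them. With mCherry replicate 2 and NTC DMSO replicate 3 both left out, all 8 calls were kept, 11 genes were higher (15.4% of all genes tested) and 9 were lower (18.7%); with offsets that take out each library's trend with GC content, 7 of the 8 were kept (CDC25B was lost) and 23 were higher (10.7%). Both alternatives were chosen after seeing the data. The fall of all 48 genes in dTAG mCherry against NTC DMSO was called under both, 48 of 48 (9.77% and 15% of all genes tested).

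**Figure D4:**
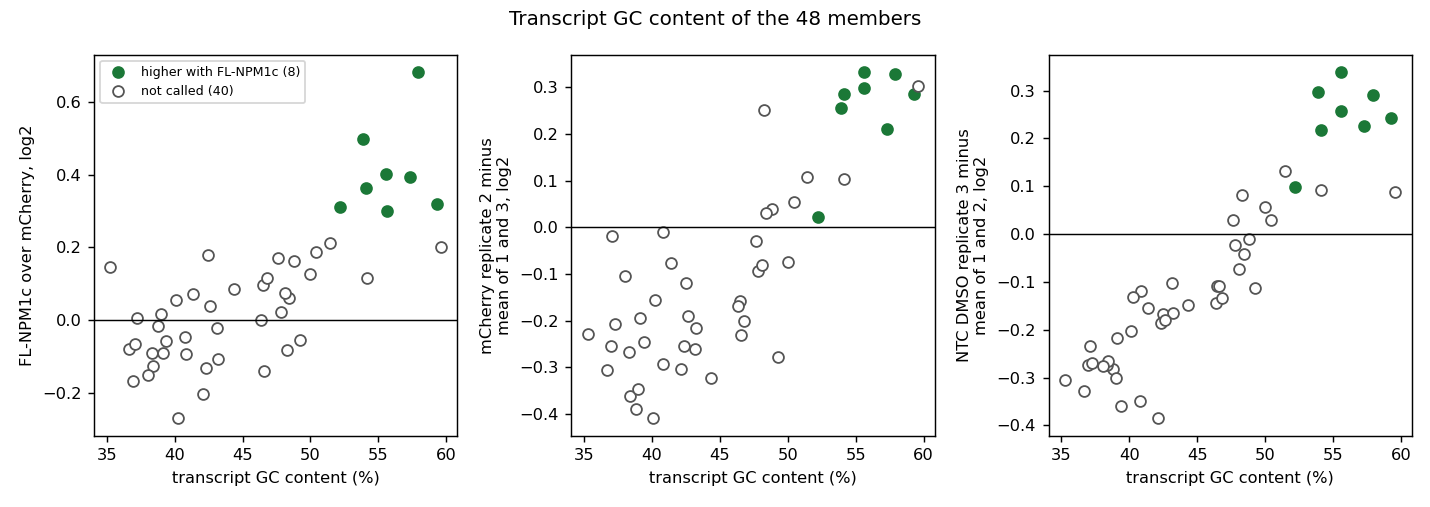
Transcript GC content (x axis, %) of the 48 genes against the log2 fold change of dTAG FL-NPM1c over dTAG mCherry (left), the log2 deviation of dTAG mCherry replicate 2 from replicates 1 and 3 (middle) and that of NTC DMSO replicate 3 from replicates 1 and 2 (right); green points are the 8 genes called higher with FL-NPM1c. The green points lie at 52.2% GC and above, and both deviations go up with GC content.

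Cells with the C-body null construct did not differ detectably from cells with mCherry alone in these genes. In dTAG C-body null over dTAG mCherry, 0 of 48 genes were called by edgeR in either direction (0.378% of all genes were called lower and 0.216% higher). At an unadjusted p under 0.05, 7 were lower and 1 was higher, and no share of all genes was computed at that level. DESeq2 called 1 lower, CENPE (0.782% of all genes tested were). The median was -0.11, and the values ran from -0.44 ± 0.11 for CENPE (adjusted p = 0.106) through -0.34 ± 0.10 for SMC4 to 0.28 ± 0.10 for CDC20 (adjusted p = 0.314). In 6 of the 48 genes the C-body null libraries lay all below the mCherry libraries, which held for 7.6% of all genes. Without mCherry replicate 2, 5 genes were called lower (CCNB1, NDC80, CENPE, NCAPG and SMC4) and CDC20 was called higher (2.6% and 3.1% of all genes tested were lower and higher). Without it and NTC DMSO replicate 3, 18 were lower (8.68% of all genes tested) and 2 higher (7.48%).

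Between the constructs, the 48 genes leaned towards higher levels with FL-NPM1c. In dTAG FL-NPM1c over dTAG C-body null, 6 of 48 were called higher (4.82% of all genes were) and 0 lower (4.86% of all genes were). The log2 fold change was positive in 44 of 48, with a median of 0.13 against 0.0055 over all genes tested, and in 26 genes the 3 FL-NPM1c libraries lay above the 3 C-body null libraries, which held for 18.1% of all genes. The 6 were PIMREG (0.71 ± 0.11, adjusted p = 0.000563), CENPE (0.59 ± 0.11, 0.00218), CDC20 (0.41 ± 0.10, 0.0177), SMC4 (0.35 ± 0.10, 0.0269), PLK1 (0.33 ± 0.09, 0.0227) and BIRC5 (0.32 ± 0.07, 0.00576). Both groups received a construct and were sorted alike. This comparison involves no NTC DMSO or mCherry library except through the shared gene filter, scaling factors and estimate of spread. PIMREG and CENPE were called whichever of the 6 libraries was left out. The number called went as low as 2 without C-body null replicate 2 (2.49% of all genes tested) or FL-NPM1c replicate 1 (2.79%). The call was lost in all 6 of these fits for SMC4, in 5 for PLK1, in 4 for CDC20 and in 2 for BIRC5. Fitted on the 2 groups alone, 19 genes were called higher (9.92% of all genes tested). By role, the median was highest for the chromosomal passenger complex (0.25) and lowest for the kinesins (0.04). The B cyclins and CDK1 stood at 0.19 for CCNB1, 0.21 for CCNB2 and 0.05 for CDK1, not called.

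The 40 genes with a promoter window were also divided by the letters printed above. In this division, 4 of 32 with TTTGAA or TTCGAA were higher in dTAG FL-NPM1c over dTAG mCherry, and 1 of 8 without (7.58% of all genes were). These counts are too small to tell the sets apart. BIRC5, FOXM1 and PIMREG, also called higher there, have no window and are in neither set. In dTAG mCherry over NTC DMSO the medians were -0.52 for the 32 and -0.50 for the 8, all called lower (9.69% of all genes were).

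Other genes of cell division, from lists that are not among the 48, were read from the same fit. Of 54 further mitotic genes tested, 52 were lower in dTAG mCherry than in NTC DMSO and 0 higher (9.69% and 12.9% of all genes were), with a median of -0.54. The largest falls were in ZWINT (-0.71 ± 0.07), a kinetochore protein, HASPIN (-0.70 ± 0.08), a histone kinase of mitosis, and NEK2 (-0.68 ± 0.09), a centrosome kinase. In dTAG C-body null 53 of the 54 were lower than in NTC DMSO (12.4% of all genes were), and in dTAG FL-NPM1c 45 (13.3%). In dTAG FL-NPM1c over dTAG mCherry, 9 were higher and 1 lower (7.58% and 7.95% of all genes were), among them NCAPH2 (0.47), ESPL1 (0.45), which encodes separase, and HASPIN (0.38). The call ended for NCAPH2 without any one of the 6 libraries of these groups but mCherry replicate 2, for ESPL1 without FL-NPM1c replicate 2 or 3 or mCherry replicate 1 or 3, and for HASPIN without mCherry replicate 1. SKA2, of the kinetochore, was the only one called in dTAG C-body null over dTAG mCherry (-0.60 ± 0.10, adjusted p = 0.00884), with 82.5, 83.1 and 81.5 CPM in dTAG C-body null against 132, 106 and 137 in dTAG mCherry; it was not called once any C-body null library or mCherry replicate 1 was left out.

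Genes upstream of mitosis moved as well. CDKN1A, the CDK inhibitor p21 of the p53 pathway, was at 236, 217 and 199.6 CPM in dTAG FL-NPM1c, at 237, 244 and 263 in dTAG C-body null and at 246, 259 and 227 in dTAG mCherry, against 32.3, 32.4 and 38.2 in NTC DMSO. It rose by 2.67 ± 0.09, 2.86 ± 0.09 and 2.83 ± 0.09 on the log2 scale in these groups (adjusted p = 1.15e-11, 5.53e-12 and 6.56e-12), with no overlap, and it did not differ detectably between dTAG FL-NPM1c and dTAG mCherry (-0.16 ± 0.09, adjusted p = 0.211). GADD45A, a stress gene that can inhibit CDK1, rose by 1.55 ± 0.15 in dTAG mCherry (adjusted p = 8.01e-07). Of the 11 regulators of CDK1 and CDK inhibitors that hold both genes, 7 fell in dTAG mCherry (9.69% of all genes did). Among these 7 was CDKN2C, the inhibitor p18 (-0.74). CDKN2C was at 121, 126 and 117 CPM in dTAG FL-NPM1c, at 63.96, 66.01 and 69.6 in dTAG C-body null and at 75.7, 89.5 and 70.7 in dTAG mCherry, and rose over dTAG mCherry in dTAG FL-NPM1c (0.62 ± 0.09, adjusted p = 0.000209).

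G1/S and replication genes fell with the mitotic ones, 17 of 18 in dTAG mCherry over NTC DMSO (9.69% of all genes did), with a median of -0.64. E2F2 (-0.94), CDC6 (-0.77), which loads the replicative helicase, and E2F1 (-0.74) had the largest changes. In dTAG FL-NPM1c over dTAG mCherry, 8 of the 18 rose and 0 fell (7.58% and 7.95% of all genes did), with a median of 0.20. The largest rises were in CDT1 (0.60 ± 0.14, adjusted p = 0.0113), TK1 (0.54 ± 0.12, 0.00887) and MCM7 (0.53 ± 0.10, 0.00298). For the 48 mitotic genes the same comparison gave a median of 0.05. Across those 48 the change went up with GC content (Spearman's rho 0.725). The difference between the 2 lists was not tested, and no median with GC offsets was computed for the 18 genes. The CDT1 call ended in 1 of 6 fits without 1 library. By library, the median log2 ratio of the 18 genes to the NTC DMSO mean was -0.67, -0.55 and -0.74 in dTAG mCherry. It was -0.35, -0.39 and -0.42 in dTAG FL-NPM1c and -0.03, -0.03 and 0.06 in NTC DMSO. The part of mCherry replicate 2 and NTC DMSO replicate 3 in these differences was not tested. Of the 12 genes of the DREAM and MuvB complexes, 6 fell in dTAG mCherry (9.69% of all genes did). They included LIN54, the subunit that contacts the homology region (-0.73 ± 0.10), and MYBL2, which encodes B-MYB (-0.67 ± 0.12). MYBL2 was higher in dTAG FL-NPM1c than in dTAG mCherry (0.43 ± 0.12, adjusted p = 0.0264), but not once FL-NPM1c replicate 1 or 2 or mCherry replicate 1 or 3 was left out. The anaphase-promoting complex with its partners, 17 genes, had 3 lower in dTAG mCherry (9.69% of all genes were), FBXO5 (-0.58), UBE2S (-0.39) and CDC27 (-0.32), and a median of -0.17. The call of CDC27 ended without NTC DMSO replicate 1 or 2 or mCherry replicate 1 or 2, and that of UBE2S without NTC DMSO replicate 1 or 3 or mCherry replicate 1 or 3. Centriole and centrosome genes had 8 of 10 lower in dTAG mCherry (9.69% of all genes were), led by PLK4, the kinase that starts centriole copying (-0.59 ± 0.10). In dTAG FL-NPM1c over dTAG mCherry, 0 of the 10 were called in either direction (7.58% of all genes were higher and 7.95% lower).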

How the data were processed

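Libraries (12, in 4 groups of 3) were made with the TruSeq Stranded mRNA kit, per the labels' protocols. Raw whole-number gene counts were deposited as 1 table; STAR, featureCounts, DESeq2 and the build hg38 are named, without versions, in the submitters' processing notes. Annotation and strand setting were not given in the sources used here. Overlapping genes are therefore uncertain: exons of 21 of the 48 genes overlap another gene in GENCODE 29 (18 on the opposite strand, 4 on the same), and copies by name held at most 0.434% of a gene's counts. Columns were matched to samples by library number, and groups were taken from the titles. The cell line labels carry a running number that differs between samples, while the protocols name OCI-AML3 alone, which was taken for all. Of 78936 lines, 6 broken ones (2 genes) were left out.

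Counts were analysed in R 4.3.3 with edgeR 4.0.16: filterByExpr by group left 24064 genes (0.0795% of counts removed), TMM factors were 0.975 to 1.02, and all 12 libraries entered 1 robust quasi-likelihood fit without covariates (common biological coefficient of variation 0.0975), with 6 contrasts and Benjamini-Hochberg adjustment over all genes. A gene with an adjusted p under 0.05 was called. SE is the absolute log2 fold change over the square root of F. The script was tested on simulated data. Replicate pairs differed by more than sampling noise (chi-square per degree of freedom 3.6 to 36.0 over genes with at least 10 counts in a pair). Library totals of 30.5 M to 59.9 M counts set the precision of single values, with the spread between libraries.

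The 48 genes, their role groups and the other lists were chosen with earlier results of these data known, so no count is independent support for a pattern seen before. Genes described singly were a fixed core set, the largest and smallest change of each role group in dTAG mCherry over NTC DMSO, the 3 largest called changes of the other comparisons, members missing a call most others had, and up to 3 called genes of each other list; further values are given where a group is described. Each result was recomputed with DESeq2 1.42.0, with RLE scaling or library totals in place of TMM, with no filter on low counts or one of 50 counts in 3 libraries, at an adjusted p under 0.01, on the 2 groups alone, with a replicate block and without each library in turn; leaving out 2 libraries together and GC offsets were added after seeing the data. GC content was that of the reference transcripts, known for 85.7% of the genes tested and for all 48. Promoter windows are from RefSeq (GRCh38.p14). The table was read and figures were drawn with Python 3.11.15.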

Additional observations from a re-analysis of the deposited data

Results flagged for a closer look

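The 6 differences given here between the construct groups passed the test of the difference itself, dTAG FL-NPM1c minus dTAG C-body null under the same treatment, in edgeR's fit over all genes. The difference was 0.71 for PIMREG (27.6 CPM in dTAG FL-NPM1c, 16.8 in dTAG C-body null), 0.59 for CENPE (153 and 102) and 0.41 for CDC20 (180.2 and 136), each on the log2 scale with group means in the same order. It was 0.35 for SMC4 (321 and 252), 0.33 for PLK1 (68.7 and 54.5) and 0.32 for BIRC5 (185 and 149). With 1 of the 6 libraries left out, the call of SMC4 ended in 6 of 6 fits, that of PLK1 in 5, of CDC20 in 4 and of BIRC5 in 2. In all 6 genes, the 3 FL-NPM1c libraries lay above the 3 C-body null libraries, which held for 18.1% of all genes. The 6 were chosen by their call on these same libraries, so this order is no separate support.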

How the results depend on the processing

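The fall of the 48 genes in dTAG mCherry over NTC DMSO was called for 46 to 48 genes under every alternative run, against 4.96% to 15% of all genes tested. The count was 46 with the 2 groups alone, where BUB3 and UBE2C were lost. Medians ran from -0.57 to -0.48 when 1 library was left out. In dTAG C-body null over NTC DMSO 46 to 48 were lower (6.87% to 17% of all genes tested), and the median without 1 library ran from -0.63 to -0.59. In dTAG FL-NPM1c over NTC DMSO 40 to 42 were lower without 1 library (median -0.50 to -0.45). There, 37 were lower at an adjusted p under 0.01, 46 with GC offsets and 41 to 44 under the others. The share of all genes tested was 6.64% to 19.9% over these settings. GC offsets put these medians at -0.52 and -0.34. Without the libraries mCherry replicate 2 and NTC DMSO replicate 3, 1 gene (CDC20) was higher in dTAG FL-NPM1c than in NTC DMSO (19.3% of all genes tested). In dTAG FL-NPM1c over dTAG mCherry, leaving out 1 library gave 3 to 11 genes higher (2.84% to 14.8% of all genes tested). It gave 0 to 4 lower (3.69% to 13%) and a median from -0.01 to 0.09. An adjusted p under 0.01 left 4 higher (2.22% of all genes tested) and DESeq2 gave 1 lower (9.65%). The 2 libraries left out together gave 9 lower (18.7%) and a median of -0.047. GC offsets gave 23 higher (10.7%) and a median of 0.13, and 3 values changed sign and were called there: HMMR 0.13, PLK4 0.13 and SKA2 0.165. In dTAG C-body null over dTAG mCherry, leaving out 1 library gave 0 to 5 lower (0.142% to 2.6% of all genes tested). It gave 0 to 1 higher (0.0896% to 3.1%) and a median from -0.14 to -0.06. DESeq2 gave 1 lower (0.782%) and no low-count filter 2 (0.404%). The 2 libraries left out together gave 18 lower (8.68%) and 2 higher (7.48%), and GC offsets 3 lower (1.76%) and 1 higher (1.39%). In dTAG FL-NPM1c over dTAG C-body null, leaving out 1 library gave 2 to 5 higher (2.49% to 3.77% of all genes tested). The median then ran from 0.09 to 0.15. An adjusted p under 0.01 gave 3 higher (2.36%) and the 2 groups alone 19 (9.92%). The 2 libraries left out together gave 19 (7.27%). GC offsets gave 28, where 2157 of all 20621 genes tested were called higher, against 1160 of 24064 in the main fit. Where calls were gained or lost, the cause was not tested. Over the genes described singly and the list genes, 5549 of 5952 values kept their side of the threshold. A change of sign between uncalled values was counted as kept. Without a change of sign, 213 lost the call and 187 gained it, and 3 changed sign with a call in at least 1 of the fits compared.

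Equal replicate numbers did not pair the libraries: of 18 pairs with the same number, 2 had residuals correlated over 0.1, and 0 of 12 libraries correlated best with a library of their own number. With the replicate number as a block, 48 genes were lower in dTAG mCherry over NTC DMSO (7.65% of all genes were), 47 in dTAG C-body null (10.4%) and 41 in dTAG FL-NPM1c (10.7%). In dTAG FL-NPM1c, 6 were higher over dTAG mCherry (4.88%) and 4 over dTAG C-body null (3.73%), where SMC4 and PLK1 were lost. In dTAG C-body null over dTAG mCherry 0 were called (0.224% of all genes were lower and 0.133% higher). The counting error of a single library, from a group's mean count, had a median over the 48 genes of 1.55% in dTAG FL-NPM1c, 1.84% in dTAG C-body null, 1.84% in dTAG mCherry and 1.51% in NTC DMSO and reached 5.17%; the median coefficient of variation between libraries was 4.08% in dTAG FL-NPM1c, 3.97% in dTAG C-body null, 9.97% in dTAG mCherry and 6.83% in NTC DMSO.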
